A study of Mus musculus with 12 samples.

Results

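The glycolysis and hypoxia response genes described here are 42 genes taken from a list of names, with no threshold on their values, among the 31017 gene symbols of the deposited count table: 23 genes of glucose uptake, glycolysis and lactate export, and 19 genes of the hypoxia response. The list was chosen with earlier results of these data known, a limit on reading counts of members against shares of all genes. Of the 42 genes, 39 passed the filter on low counts and were tested. RNA came from 4T1, a mammary carcinoma line of the mouse, cultured within 3D collagen I gels in 4 groups of 3 libraries. In the group Etv4_KO_FGF, cells had been nucleofected with Cas9 and a guide against Etv4, a PEA3-type transcription factor with an ETS domain, and were cultured with 25 ng/ml of FGF10 together with 40 ng/ml of FGF2. The group control_FGF received Cas9, a control guide and the same FGF10 and FGF2. The group Etv4_KO received Cas9 and the Etv4 guide without FGF, and the group control received Cas9 and the control guide without FGF. All 4 groups share the cell line, Cas9 and 4 days in 2% serum. The FGF cultures were first held in 10% serum with FGF, and the labels do not describe that step for cultures without FGF, so this step and FGF cannot be told apart. A medium change is also given for the FGF cultures alone, and it cannot be told apart from FGF either. Collagen concentrations of both 1.2 mg/ml and 2.4 mg/ml are named, with no statement of which library had which. Every knockout library name carries the same further tag, whose meaning is not given. Whether these cells are 1 clone or a pool is not stated, and with 1 clone the clone and the genotype cannot be told apart. Separate cultures are not stated for the replicates either, and the spread behind each p-value may thus be technical.

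Glycolysis splits glucose into pyruvate in the cytosol, and lactate dehydrogenase and lactate transporters carry the end product away. When oxygen is low, prolyl hydroxylases of the Egln family no longer mark the HIF alpha subunits for destruction, and HIF binds short promoter and enhancer sequences with a core of ACGTG or GCGTG to raise transcription of glycolytic enzymes, Vegfa, Egln3 and other genes. Many carcinoma cells keep this program active and use glycolysis at a high rate even with oxygen present. Oxygen was not part of the design, and the labels give no oxygen measurement.

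Promoter stretches of 6 members are shown because they hold the HIF core letters on genes that moved in both directions in the knockout. Pdk1, Egln3 and Pgk1 were higher, and Pfkm, Ddit4 and Stc2 lower, in Etv4_KO than in control. Each stretch is 120 bases of GRCm38.p6 upstream of a RefSeq gene start, read 5′ to 3′ on the strand of the gene, and capitals mark ACGTG or GCGTG on that strand or its reverse complement, CACGT or CACGC, for a core on the other strand; overlapping cores appear as 1 run of capitals.
Pdk1, chr2:71873104-71873223, plus strand: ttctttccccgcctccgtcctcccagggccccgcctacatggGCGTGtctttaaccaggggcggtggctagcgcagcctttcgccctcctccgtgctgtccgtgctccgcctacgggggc
Egln3, chr12:54204005-54204124, minus strand: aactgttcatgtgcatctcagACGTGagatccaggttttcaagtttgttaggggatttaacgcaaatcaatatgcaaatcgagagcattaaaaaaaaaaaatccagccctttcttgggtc
Pgk1, chrX:106186940-106187059, plus strand: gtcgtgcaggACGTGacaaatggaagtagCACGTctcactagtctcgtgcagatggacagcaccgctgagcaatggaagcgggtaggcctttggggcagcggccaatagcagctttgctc
Pfkm, chr15:98092429-98092548, plus strand: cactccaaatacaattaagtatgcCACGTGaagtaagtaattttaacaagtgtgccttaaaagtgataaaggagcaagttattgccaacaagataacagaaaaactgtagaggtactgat
Ddit4, chr10:59951851-59951970, minus strand: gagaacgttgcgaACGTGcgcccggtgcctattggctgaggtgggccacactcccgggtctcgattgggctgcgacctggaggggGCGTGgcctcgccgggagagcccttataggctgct
Stc2, chr11:31370192-31370311, minus strand: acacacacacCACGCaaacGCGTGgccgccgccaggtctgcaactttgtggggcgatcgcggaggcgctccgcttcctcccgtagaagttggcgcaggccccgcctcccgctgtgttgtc

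RefSeq gave a promoter window, 250 bases before to 50 bases after a gene start, for 37 of the 42 members. ACGTG or GCGTG was present on either strand in at least 1 window of 34 of these 37 members (91.9%), against 12628 of 27025 genes with a window (46.7%). Over single windows the shares were 43 of 55 for members (78.2%) and 14380 of 32851 for all windows of the same length (43.8%). The letters were present in 18 of 20 members that were higher in Etv4_KO than in control, in 6 of 6 that were lower and in 9 of 10 that were not called. CCGGAA, a core letter string of ETS factor sites, was present in 7 of 37 members (18.9%), against 16.7% of genes with a window. The HIF core letters were present in most members of each kind. These matches are descriptions of letters in a window, not of binding.

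Library totals ran between 18229429 and 23193244 counts. CPM below are counts scaled by TMM to a common library total. Sums over marker genes of other cell types were low, and some did not overlap between genotypes. Epithelial sums were 4420 to 4540 CPM in Etv4_KO_FGF against 5090 to 5700 CPM in control_FGF, and 4750 to 6750 CPM in Etv4_KO against 4890 to 5060 CPM in control. Fibroblast sums, with Pdgfrb, Dcn, Lum and Thy1 at 0 in all libraries (4 of 7 markers), were 12.3 to 15.9 CPM in Etv4_KO_FGF against 7.93 to 11.2 CPM in control_FGF, and 8.39 to 14.1 CPM in Etv4_KO against 9.76 to 11.4 CPM in control. Leukocyte sums, with Adgre1, Cd3e and Ms4a1 at 0 (3 of 6), were 9.07 to 9.94 CPM in Etv4_KO_FGF against 6.72 to 7.81 CPM in control_FGF, and 9.2 to 11.5 CPM in Etv4_KO against 5.73 to 9.35 CPM in control. Endothelial sums, with Kdr and Cldn5 at 0 (2 of 6), were at most 1.82 CPM. By edgeR the leukocyte marker Cd68 was higher in Etv4_KO than in control (log2 0.47, adjusted p = 0.0411, not called without Etv4_KO replicate 2) and the fibroblast marker Pdgfra higher in Etv4_KO_FGF than in control_FGF (log2 0.51, adjusted p = 0.0353). Their part in the results was not tested. Etv4 transcripts were still present in the knockout, at 115.2, 119.5 and 113.1 CPM in Etv4_KO_FGF against 154.5, 173 and 166.9 CPM in control_FGF, and at 116.3, 159 and 116 CPM in Etv4_KO against 167.9, 162.2 and 167.5 CPM in control. Knockout values were below control values in both conditions, with Etv4_KO replicate 2 closest to control. In each condition p was 0.1 by exact permutation (two-sided), the smallest value that 3 against 3 allows, and edgeR called Etv4 lower in both, by a log2 difference of -0.51 with FGF (adjusted p = 0.00204) and -0.35 without (adjusted p = 0.0173; -0.51 without Etv4_KO replicate 2). Leaving out control replicate 1 (0.0514), Etv4_KO replicate 1 (0.0661) or Etv4_KO replicate 3 (0.0667) ended the call in cultures without FGF.

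Etv4_KO replicate 2 stood apart from the other libraries. Its genes deviated from the mean of Etv4_KO replicates 1 and 3 with an SD of 0.548 on the log2 scale, against 0.235 to 0.361 in the other 11 libraries. Across genes this deviation had a Spearman correlation with exon length of -0.53 and with GC content of 0.52, a description across genes, and over the 39 tested members of -0.48 and 0.61. Ribosomal protein genes took 7.17% of its counts, against 5.26% and 5.53% in replicates 1 and 3. Of the 39 members, 25 were higher and 13 lower in this library than in the other 2. Short, GC-rich glycolytic transcripts were high in it, Tpi1 by 0.73, Pkm by 0.63 and Gapdh by 0.62 on the log2 scale, whereas Hif1a was lower by a log2 difference of -1.01, Adm by -0.94 and Slc16a1 by -0.62. Stc2 had 0 counts in it, as in the other knockout libraries without FGF. A correction that removed the trend of each library with exon length and GC content gave 27 members higher and 5 lower in Etv4_KO against control, and 28 higher and 5 lower with FGF. The shares of all genes called in these comparisons after the correction are not given here, so these counts cannot be set against them. Values without Etv4_KO replicate 2 are given where they bear on a call or a size.

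**Figure D1:**
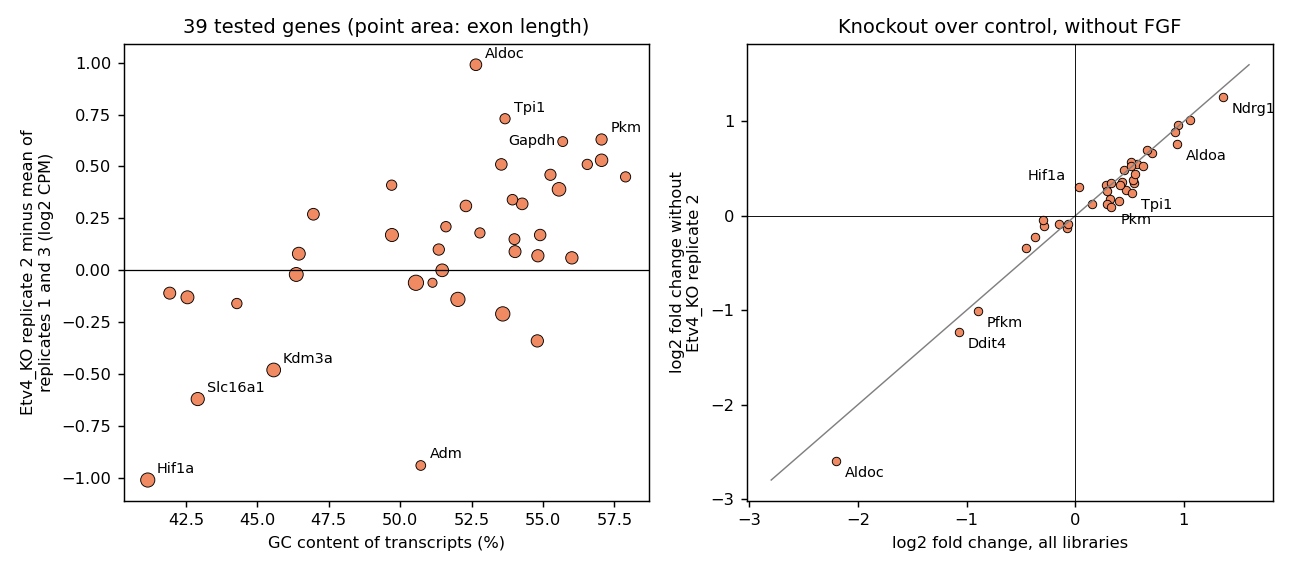
Left, the log2 CPM deviation of Etv4_KO replicate 2 from the mean of replicates 1 and 3 (y axis) against transcript GC content in percent (x axis) for 39 tested genes, with point area by exon length. Right, the log2 fold change of Etv4_KO over control without replicate 2 (y axis) against that with all libraries (x axis) for 38 genes, with the line of equality. Hif1a lies at -1.01 and Aldoc at 0.99 on the left, and on the right Aldoc moves to -2.60 from -2.20 without the library.

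In the knockout without FGF, most members were higher than in control. Ndrg1, P4ha2, Pdk1, Aldoa and Egln3 rose most, by 0.92 to 1.36 on the log2 scale, while Stc2, Aldoc, Ddit4 and Pfkm fell most. By the edgeR quasi-likelihood test with Benjamini-Hochberg adjustment over 12079 genes, called at an adjusted p under 0.05, 23 of 39 tested members were higher, 6 were lower and 10 were not called. Of all genes tested, 22.5% were higher and 23.3% lower, 45.8% in either direction. The median log2 fold change was 0.40 over the tested members and -0.01 over all genes. Leaving out Etv4_KO replicate 2, 24 members were higher and 6 lower, with 26.3% of genes higher, 28.2% lower and 54.5% either way, and the member median was 0.30. Among glycolysis genes 12 of 21 were higher and 2 lower, with a median of 0.33 that was 0.18 without that library. Among hypoxia genes 11 of 18 were higher and 4 lower, with medians of 0.48 and 0.46.

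With FGF in both genotypes, 18 of 39 members were higher, 4 lower and 17 not called in Etv4_KO_FGF against control_FGF, where 18% of all genes were higher, 22.2% lower and 40.3% called in either direction. The median log2 fold change was 0.24 over members and -0.01 over all genes. Among glycolysis genes 7 of 21 were higher and 2 lower, with a median of 0.1. Among hypoxia genes 11 of 18 were higher and 2 lower, with a median of 0.46. When Etv4_KO replicate 2, which enters this comparison through the shared estimate of spread, was left out, 23 members were higher and 5 lower, with 28.1% and 30.5% of genes, 58.6% either way. The comparisons with and without FGF share no libraries. In both, 16 members were higher and 4 lower, and 0 were called in opposite directions. A further 9 members were called without FGF alone and 2 with FGF alone, but a call on 1 side is not a tested difference, and the tests of the difference are given with the FGF results. The same call in both conditions was made for 51.3% of tested members and 30.4% of all genes tested.

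**Figure D2:**
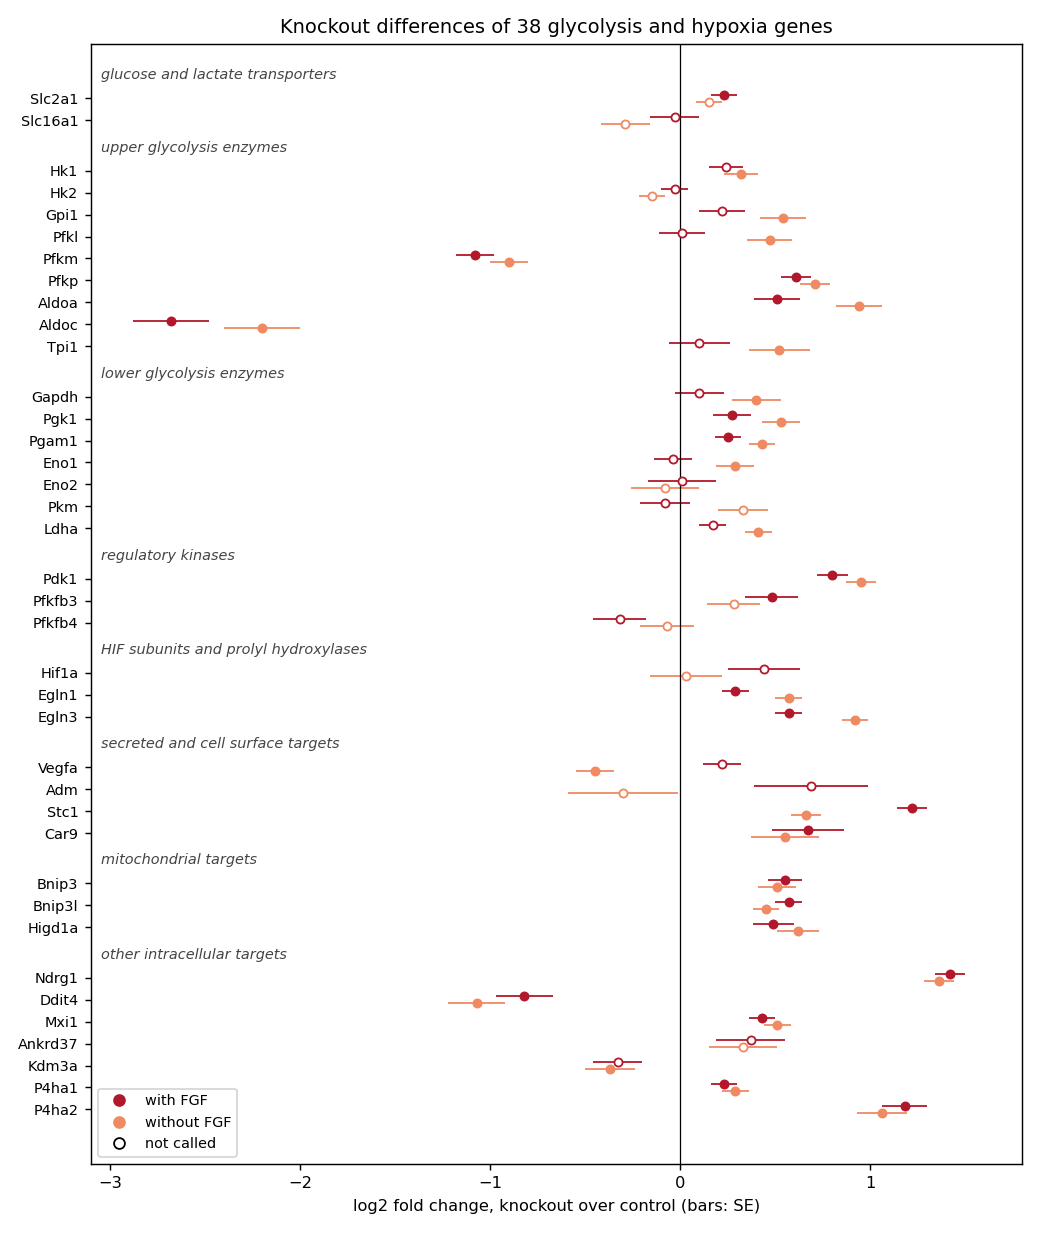
Log2 fold change of knockout over control (x axis) for 38 tested genes by role, with FGF (red, upper point) and without FGF (orange, lower point). Bars are SE, filled points have an edgeR adjusted p under 0.05 and open points do not. Ndrg1 lies at 1.42 and 1.36 and Aldoc at -2.68 and -2.20, and Stc2 is not drawn because it had 0 counts in Etv4_KO.

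Of the transporters, Slc2a1 (GLUT1, basal glucose uptake) and Slc16a1 (MCT1, lactate transport) were detected in every library, whereas Slc16a3 (the lactate exporter MCT4) had 0 counts in all 12 libraries. Slc2a3 (GLUT3) had 0 counts in both knockout groups, 2 in control_FGF and 1 in control, at or under the floor of 3 counts per group. In cultures with FGF, Slc2a1 was higher in the knockout, at 131 to 140 CPM in Etv4_KO_FGF against 109 to 118 CPM in control_FGF (log2 0.23, SE 0.07, edgeR adjusted p = 0.0135). Those groups did not overlap. The call was lost without control_FGF replicate 1 (0.0651) or Etv4_KO_FGF replicate 3 (0.0616). Without FGF Slc2a1 had 109 to 117 CPM in Etv4_KO and 97 to 104 CPM in control and was not called (log2 0.15, edgeR adjusted p = 0.0805). It was called higher there by DESeq2 (0.15, adjusted p = 0.0485) and by edgeR after the length and GC correction (0.23, adjusted p = 0.00285). Slc16a1 had 184, 118 and 177 CPM in Etv4_KO against 195, 200 and 188 CPM in control (log2 -0.29, edgeR adjusted p = 0.0803). Its low value lay in replicate 2: the log2 fold change was -0.11 without that library, and the gene was called lower without replicate 1 (-0.40, edgeR adjusted p = 0.0221) or replicate 3 (-0.36, 0.0473).

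Aldolase, which cleaves the doubly phosphorylated sugar, had isoforms that moved in opposite directions. Aldoa (chr7:126795234-126800751, the ubiquitous isoform) had 823, 1146 and 789 CPM in Etv4_KO against 462, 460 and 511 CPM in control, and 779, 784 and 756 CPM in Etv4_KO_FGF against 506, 589 and 536 CPM in control_FGF. Aldoc (chr11:78322968-78327781, known from brain) had 3.58, 7.37 and 3.74 CPM in Etv4_KO against 21.9, 22.6 and 22.1 CPM in control, and 3.27, 3.17 and 3.30 CPM in Etv4_KO_FGF against 20.5, 21.9 and 20.4 CPM in control_FGF. Neither gene's knockout and control libraries overlapped in either condition, and Etv4_KO replicate 2 was the highest knockout library for both. Aldoa rose by 0.94 on the log2 scale without FGF (SE 0.12, edgeR adjusted p = 3.79e-05; 0.76 without Etv4_KO replicate 2) and by 0.51 with FGF (SE 0.12, edgeR adjusted p = 0.0039). Aldoc fell by 2.20 without FGF (SE 0.20, edgeR adjusted p = 1.93e-06; log2 -2.60 without that library) and by 2.68 with FGF (SE 0.20, edgeR adjusted p = 4.13e-07).

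Phosphofructokinase, the committed step, is built from Pfkl (liver), Pfkm (muscle) and Pfkp (platelet) subunits. Pfkm (chr15:98092589-98132451) had 17.8, 22.8 and 18.7 CPM in Etv4_KO against 39, 36.3 and 35.3 CPM in control, and 15.4, 15.7 and 15.4 CPM in Etv4_KO_FGF against 32, 34.4 and 32.1 CPM in control_FGF. Pfkp (chr13:6579768-6648777) had 49.2, 53.2 and 45.3 CPM in Etv4_KO against 29.9, 30.7 and 29.3 CPM in control, and 47, 45.5 and 41.8 CPM in Etv4_KO_FGF against 28.8, 30.8 and 28.3 CPM in control_FGF. Each gene's knockout and control libraries were apart in both conditions. Pfkm fell by 0.90 without and by 1.08 with FGF (SE 0.10 each, edgeR adjusted p = 8.9e-06 and 1.88e-06), and Pfkp rose by 0.71 and 0.61 (SE 0.08 each, edgeR adjusted p = 1.75e-05 and 6.61e-05). Pfkl rose by 0.47 without FGF (SE 0.12, edgeR adjusted p = 0.00747; 0.27 without Etv4_KO replicate 2) and stood at log2 0.01 with FGF (edgeR adjusted p = 0.973). Per kilobase of exon, Pfkm made up 8.26% ± 0.618 of the phosphofructokinase transcripts in Etv4_KO against 19.1% ± 1.06 in control, and 7.89% ± 0.385 in Etv4_KO_FGF against 16.2% ± 0.376 in control_FGF (SD, n = 3 each). Pfkp made up 14.4% ± 1.67 against 10.8% ± 0.5, and with FGF 15.9% ± 0.597 against 10.1% ± 0.263, in the same order of groups. These shares are derived from the same counts as the fold changes and carry no test of their own.

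Hk1, the housekeeping hexokinase, had 245, 325 (replicate 2) and 252 CPM in Etv4_KO against 224, 215 and 218 CPM in control, and 265, 255 and 259 CPM in Etv4_KO_FGF against 215, 229 and 215 CPM in control_FGF. Hk2, the hexokinase known for induction in tumours, had 79.7, 68.8 and 79.8 CPM in Etv4_KO against 83.1, 89.5 and 81.4 CPM in control, and 87.8, 90.2 and 91.2 CPM in Etv4_KO_FGF against 94.2, 89 and 90.6 CPM in control_FGF. Hk1 was higher in all knockout libraries, while the Hk2 groups overlapped with FGF. Hk1 rose by 0.32 without FGF (SE 0.09, edgeR adjusted p = 0.0122; 0.18 without Etv4_KO replicate 2) and had log2 0.24 with FGF (edgeR adjusted p = 0.0553). When the compared libraries were fitted alone, Hk1 lost its call without FGF (edgeR adjusted p = 0.064). With FGF it was called without Etv4_KO replicate 1 (0.0379), 2 (8.27e-05) or 3 (0.0486) or control_FGF replicate 2 (0.0397). Hk2 was not called, at log2 -0.15 and -0.03 (edgeR adjusted p = 0.109 and 0.818). Gpi1, which converts glucose phosphate to fructose phosphate, had 299, 414 and 283 CPM in Etv4_KO against 222, 230 and 234 CPM in control, and 286, 278 and 253 CPM in Etv4_KO_FGF against 222, 249 and 230 CPM in control_FGF. Tpi1, which interconverts the triose phosphates, had 376, 608 and 358 CPM in Etv4_KO against 273, 324 and 338 CPM in control, and 348, 370 and 375 CPM in Etv4_KO_FGF against 326, 377 and 315 CPM in control_FGF. Both genes were highest in Etv4_KO replicate 2, and the Tpi1 groups overlapped with FGF. Gpi1 rose by 0.54 (SE 0.12, edgeR adjusted p = 0.0025) and Tpi1 by 0.52 (SE 0.16, edgeR adjusted p = 0.0197) without FGF. Those values were 0.35 and 0.24 without Etv4_KO replicate 2. Tpi1 lost its call without control replicate 1 (edgeR adjusted p = 0.0857) or in the compared libraries alone (0.0795). With FGF neither was called, at 0.22 and 0.10, and without Etv4_KO replicate 2 Gpi1 was (edgeR adjusted p = 0.00105). Across the 9 upper glycolysis genes, 6 were higher and 2 lower without FGF and 2 were higher and 2 lower with FGF, or 4 and 2 without that library. Of all genes tested, 22.5% were higher and 23.3% lower without FGF, and 18% and 22.2% with FGF, so the counts of 2 and 2 with FGF were near those shares. Without Etv4_KO replicate 2 the shares with FGF were 28.1% and 30.5%. After the length and GC correction Gpi1 (0.38, edgeR adjusted p = 0.000414), Hk1 (0.32, 0.00194) and Tpi1 (0.28, 0.0191) were also called higher with FGF.

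The lower part of the pathway held the most abundant transcripts, with Pkm at 1140 to 1520 CPM per kilobase and Gapdh at 660 to 870 CPM per kilobase as group means. Of its 7 genes, 5 were higher and 0 lower in Etv4_KO than in control, and 2 were higher and 0 lower with FGF, where 22.5% and 18% of all genes were higher. Pgk1, which makes the first ATP of the pathway, had 477, 643 and 492 CPM in Etv4_KO against 362, 363 and 392 CPM in control, and 487, 478 and 464 CPM in Etv4_KO_FGF against 384, 418 and 387 CPM in control_FGF. It was higher in all knockout libraries. Pgk1 rose by 0.53 without FGF (SE 0.10, edgeR adjusted p = 0.000768; 0.38 without Etv4_KO replicate 2) and by 0.27 with FGF (SE 0.10, edgeR adjusted p = 0.0454). The call with FGF was lost without any 1 library of control, Etv4_KO_FGF, or control_FGF replicate 1 or 3 (edgeR adjusted p = 0.0566 to 0.129). Pgam1, a mutase, rose by 0.43 and 0.25 (SE 0.07 each, edgeR adjusted p = 0.00028 and 0.0106), with no call lost. Ldha, which makes lactate, rose by 0.41 without FGF (SE 0.07, edgeR adjusted p = 0.000567; 0.33 without Etv4_KO replicate 2). With FGF it had log2 0.17 (edgeR adjusted p = 0.0729) and was called without Etv4_KO replicate 2 (0.00251) or control_FGF replicate 2 (0.22, 0.0295), or after the length and GC correction (0.36, 1.92e-05).

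Gapdh and the enolase gene Eno1 depended on single libraries. Gapdh had 1098, 1692 and 1110 CPM in Etv4_KO against 987, 947 and 1028 CPM in control. It rose by 0.40 (SE 0.13, edgeR adjusted p = 0.0257), or by 0.16 without Etv4_KO replicate 2. Gapdh was not called without control replicate 1 (0.0656) or 2 (0.0836), or in the compared libraries alone (0.0961). Eno1 had 1029, 1414 and 1025 CPM in Etv4_KO against 959, 912 and 974 CPM in control, and 990, 944 and 950 CPM in Etv4_KO_FGF against 950, 1022 and 1002 CPM in control_FGF. It rose by 0.29 without FGF (SE 0.10, edgeR adjusted p = 0.0377), or by 0.12 without Etv4_KO replicate 2. The call was lost without any 1 library of control or Etv4_KO_FGF or without control_FGF replicate 3 (edgeR adjusted p = 0.0506 to 0.117). It was also lost in the compared libraries alone (0.128) and with upper-quartile scaling (0.063). With FGF Gapdh and Eno1 were not called, at log2 0.10 and -0.04, and after the length and GC correction both were called higher (0.25, edgeR adjusted p = 0.000769, and 0.12, 0.0494). Eno1b, a near-identical copy counted separately, had 117 to 184 CPM in Etv4_KO and 97.6 to 109 CPM in control, so the split of reads between the copies is uncertain. Pkm, the last enzyme, had 3310, 5167 and 3360 CPM in Etv4_KO against 3063, 3089 and 3246 CPM in control. It was not called in the main edgeR fit (log2 0.33, adjusted p = 0.0578, and 0.09 without replicate 2), but was without replicate 1 (0.45, 0.0151) or 3 (0.44, 0.0198). With all libraries Pkm was called higher after the length and GC correction (0.34, edgeR adjusted p = 0.000512). DESeq2 (0.33, adjusted p = 0.0461) and edgeR with no low-count filter (0.34, adjusted p = 0.0235) also called it. Eno2, the neuronal enolase, had 3.03, 3.96 and 4.06 CPM in Etv4_KO against 4.09, 3.83 and 3.74 CPM in control, and 3.51, 4.07 and 3.40 CPM in Etv4_KO_FGF against 3.60, 4.34 and 2.95 CPM in control_FGF. Its groups overlapped in both conditions (log2 -0.08 and 0.01).

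Of the regulatory kinases, Pdk1 (chr2:71873224-71903858) phosphorylates pyruvate dehydrogenase and keeps pyruvate from the mitochondrial oxidation route. It had 35.2, 34.6 and 34.9 CPM in Etv4_KO against 18.1, 17.5 and 18.5 CPM in control, and 29.7, 32 and 33.1 CPM in Etv4_KO_FGF against 18.7, 18.2 and 17.7 CPM in control_FGF. The knockout libraries lay close together and far above control, Etv4_KO replicate 2 included. Pdk1 rose by 0.95 without FGF (SE 0.08, edgeR adjusted p = 6.73e-07) and by 0.80 with FGF (SE 0.08, edgeR adjusted p = 3.31e-06). Pfkfb3 and Pfkfb4 set the level of the allosteric activator of phosphofructokinase. In the knockout against control, Pfkfb3 rose by 0.48 with FGF (SE 0.14, edgeR adjusted p = 0.0181) and had log2 0.28 without FGF (edgeR adjusted p = 0.128). The call with FGF was lost without control_FGF replicate 2 (0.077) or Etv4_KO_FGF replicate 2 (0.0838). In cultures without FGF, Pfkfb3 was called higher after the length and GC correction (0.47, edgeR adjusted p = 0.00693). It was also called there when both Etv4_KO replicate 2 and control_FGF replicate 2 were left out (0.33, 0.0371). Pfkfb4 was not called, at log2 -0.32 with and -0.07 without FGF.

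Hif1a, the oxygen-regulated HIF subunit, was not called by edgeR in either condition with all libraries and no correction, and the other alpha subunit, Epas1, had 0 counts in all 12 libraries. Hif1a had 223, 108 and 212 CPM in Etv4_KO against 180, 176 and 175 CPM in control, and 232, 238 and 230 CPM in Etv4_KO_FGF against 180, 154 and 183 CPM in control_FGF. Every knockout library except Etv4_KO replicate 2 was above every control library of its condition. The log2 fold change was 0.03 without FGF (SE 0.19, edgeR adjusted p = 0.904) and 0.44 with FGF (SE 0.19, edgeR adjusted p = 0.0864). It was called in both without Etv4_KO replicate 2, at 0.30 (edgeR adjusted p = 0.000301) and 0.44 (edgeR adjusted p = 4.89e-07). With all libraries it was called in both after the length and GC correction, at 0.33 (edgeR adjusted p = 0.00474) and 0.53 (0.000104), and with FGF also with no low-count filter (0.046) and in the compared libraries alone (2e-05). Egln3, the hydroxylase that HIF itself induces, had 59.8, 65.1 and 61.7 CPM in Etv4_KO against 32.2, 32.5 and 33.8 CPM in control, and 56.4, 55.8 and 53.7 CPM in Etv4_KO_FGF against 36, 35.7 and 40.1 CPM in control_FGF. Egln1, the main oxygen sensor, had 115, 122 and 118 CPM in Etv4_KO against 79.9, 76.9 and 82.7 CPM in control, and 104, 99.3 and 103 CPM in Etv4_KO_FGF against 80.8, 88 and 81.5 CPM in control_FGF. Neither hydroxylase gene overlapped between genotypes. Egln3 rose by 0.92 and 0.57 without and with FGF (SE 0.07 each, edgeR adjusted p = 6.77e-07 and 4.51e-05), and Egln1 by 0.57 and 0.29 (SE 0.07 each, edgeR adjusted p = 1.87e-05 and 0.00307).

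**Figure D3:**
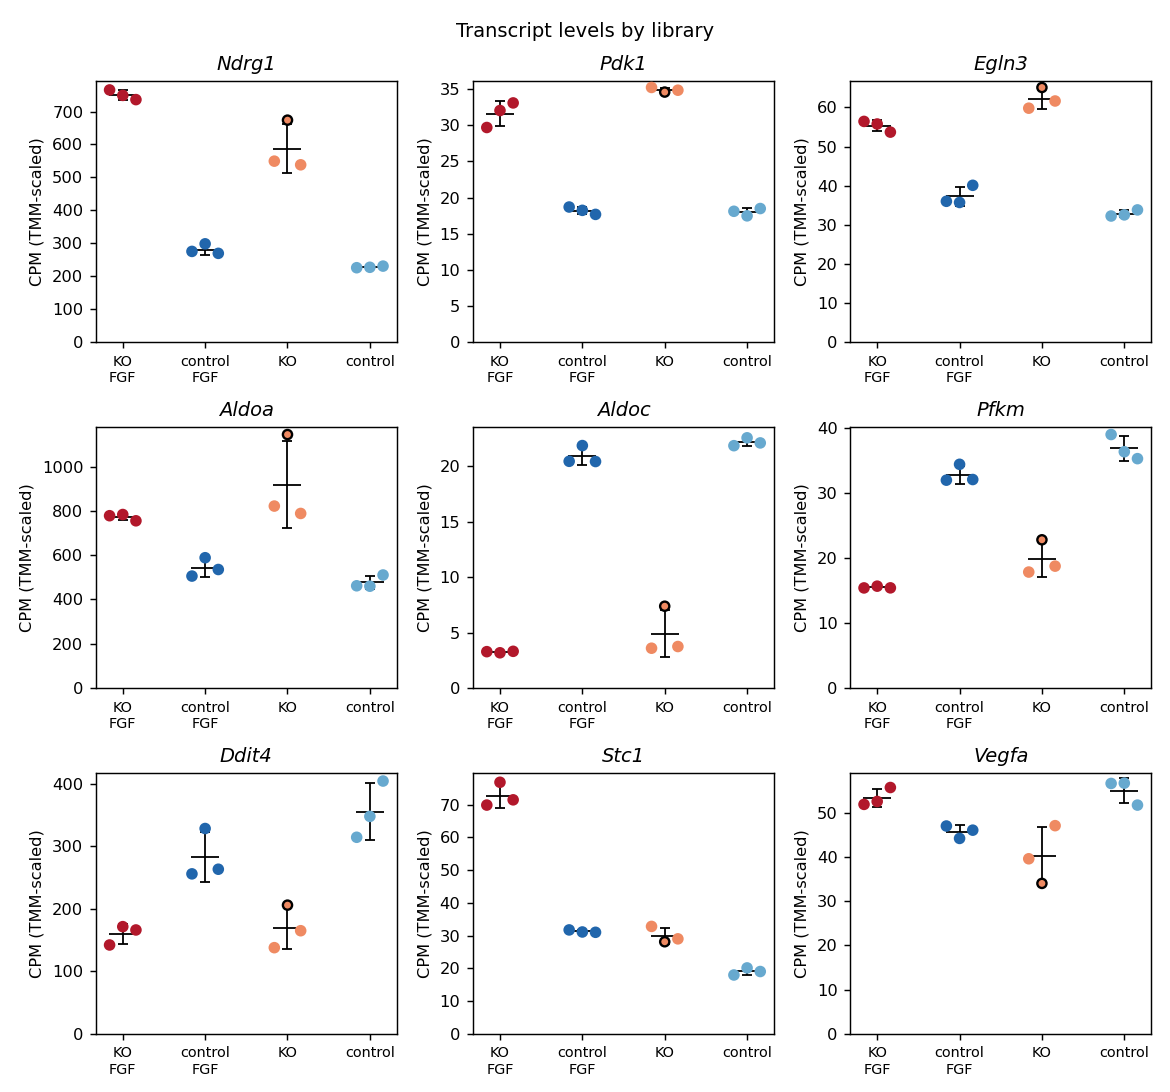
CPM (y axes, from 0) of 9 genes in every library of Etv4_KO_FGF, control_FGF, Etv4_KO and control, with mean and SD of 3 libraries per group; Etv4_KO replicate 2 is outlined in black. Ndrg1 lies at 736 to 766 CPM in Etv4_KO_FGF against 269 to 298 CPM in control_FGF, and Vegfa is lower in Etv4_KO than in control but higher in Etv4_KO_FGF than in control_FGF.

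The secreted and cell surface targets moved in different directions. Stc1 (chr14:69029238-69041804), a secreted glycoprotein hormone, had 32.8, 28.1 and 29 CPM in Etv4_KO against 18, 20.1 and 19 CPM in control, and 69.9, 76.9 and 71.5 CPM in Etv4_KO_FGF against 31.7, 31.1 and 31 CPM in control_FGF. Its relative Stc2 (chr11:31357307-31370074) had 0 counts in the 3 Etv4_KO libraries together against 92 counts in control, and 5 counts in Etv4_KO_FGF against 111 in control_FGF. The Stc1 libraries of the knockout lay above and those of Stc2 below all control libraries of their condition. Stc1 rose by 0.66 without FGF (SE 0.08, edgeR adjusted p = 4.31e-05) and by 1.22 with FGF (SE 0.08, edgeR adjusted p = 1.26e-07). Stc2 was at least 28.4-fold lower without FGF, at the floor of 3 counts over the group, and 20.8-fold lower with FGF (95% counting interval 8.64 to 65.3), with edgeR adjusted p = 0.000104 and 0.000211. Floors and intervals cover counting error only, and in bulk RNA fewer cells with a transcript and less of it per cell cannot be told apart.

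Vegfa, the angiogenic growth factor, had 39.6, 34.1 and 47.1 CPM in Etv4_KO against 56.7, 56.8 and 51.8 CPM in control, and 52, 52.6 and 55.8 CPM in Etv4_KO_FGF against 47.1, 44.2 and 46.1 CPM in control_FGF. The knockout libraries were all below control without FGF and all above it with FGF. Vegfa fell by 0.45 without FGF (SE 0.10, edgeR adjusted p = 0.00291, and log2 -0.34 without Etv4_KO replicate 2). With FGF it had log2 0.22 (SE 0.10, edgeR adjusted p = 0.0969), called without Etv4_KO replicate 2 (0.00582) or 3 (0.0398). With FGF it was also called higher after the length and GC correction (0.33, edgeR adjusted p = 0.0245) and in the compared libraries alone (0.00725). Car9, the surface carbonic anhydrase, had 8.03, 10.9 and 9.06 CPM in Etv4_KO against 6.49, 5.24 and 7.27 CPM in control, and 6.17, 6.29 and 6.95 CPM in Etv4_KO_FGF against 2.93, 4.80 and 4.53 CPM in control_FGF. Its genotypes did not overlap. Car9 rose by 0.55 (SE 0.18, edgeR adjusted p = 0.024; 0.44 without Etv4_KO replicate 2) and with FGF by 0.67 (SE 0.19, edgeR adjusted p = 0.0136). The call without FGF was lost without control replicate 1 (0.0554) or 2 (0.43, 0.105), and that with FGF without control_FGF replicate 1 (0.47, 0.063) or Etv4_KO_FGF replicate 3 (0.0502). Adm, a vasodilator peptide, had group means of 0.87 to 1.41 CPM. It was not called with all libraries and no correction (log2 -0.30 without and 0.69 with FGF, SE 0.29 and 0.30). With FGF Adm was called higher after the length and GC correction (0.86, edgeR adjusted p = 0.0381). The same held without both Etv4_KO replicate 2 and control_FGF replicate 2 (0.85, edgeR adjusted p = 0.0485).

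All 3 mitochondrial targets were called higher in both conditions, where 22.5% of all genes were higher without FGF and 18% with FGF. Bnip3 and Bnip3l mark mitochondria for autophagy, and Higd1a is an inner membrane protein. Bnip3 had 19.7, 17.9 and 20.5 CPM in Etv4_KO against 15, 13.1 and 12.6 CPM in control, and 20.3, 20.8 and 19.7 CPM in Etv4_KO_FGF against 13.5, 13.6 and 14.4 CPM in control_FGF. Bnip3l had 158, 149 and 162 CPM in Etv4_KO against 119, 114 and 110 CPM in control, and 174, 167 and 174 CPM in Etv4_KO_FGF against 123, 109 and 116 CPM in control_FGF. Higd1a had 30.7, 40.4 and 36.3 CPM in Etv4_KO against 21.9, 23 and 25.1 CPM in control, and 32.5, 37.9 and 36.6 CPM in Etv4_KO_FGF against 25.5, 27.2 and 23.7 CPM in control_FGF. Every knockout library exceeded every control library of its condition for the 3 genes, and the share of all genes that did so is not given here. Without and with FGF the log2 fold changes were 0.51 and 0.55 for Bnip3, 0.45 and 0.57 for Bnip3l and 0.62 and 0.49 for Higd1a, with edgeR adjusted p of 3.27e-05 to 0.00291.

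Ndrg1 (chr15:66929318-66969640), a stress-responsive cytosolic protein, had the highest fold change of the members that rose. It had 549, 674 and 538 CPM in Etv4_KO against 226, 227 and 231 CPM in control, and 766, 749 and 736 CPM in Etv4_KO_FGF against 275, 298 and 270 CPM in control_FGF. Both pairs of groups were far apart. Ndrg1 rose by 1.36 without FGF (SE 0.08, edgeR adjusted p = 5.85e-08) and by 1.42 with FGF (SE 0.08, edgeR adjusted p = 4.2e-08). P4ha2, a catalytic subunit of collagen prolyl hydroxylase, had 8.88, 10.1 and 9.34 CPM in Etv4_KO against 4.75, 4.91 and 3.93 CPM in control, and 11.7, 13.4 and 11.6 CPM in Etv4_KO_FGF against 4.98, 5.81 and 5.38 CPM in control_FGF. Its paralog P4ha1 had 44.2 to 48.3 CPM in Etv4_KO against 36.9 to 39.4 CPM in control, and 41 to 43.4 CPM in Etv4_KO_FGF against 35.2 to 36.8 CPM in control_FGF. Neither subunit gene overlapped between genotypes. P4ha2 rose by 1.06 and 1.18 (SE 0.13 and 0.12, edgeR adjusted p = 2.59e-05 and 7.32e-06) and P4ha1 by 0.29 and 0.23 (SE 0.07 each, edgeR adjusted p = 0.00459 and 0.0203). The P4ha1 call with FGF was lost without control_FGF replicate 1 (0.0693) or 3 (0.0633) or Etv4_KO_FGF replicate 1 (0.08). Per kilobase, P4ha2 made up 26.3% ± 0.556 of the 2 genes' transcripts in Etv4_KO against 17.3% ± 1.63 in control, and 33.9% ± 2.22 in Etv4_KO_FGF against 20.9% ± 0.908 in control_FGF (SD, n = 3 each).

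Among the remaining targets, Ddit4 (chr10:59949669-59951834), an inhibitor of mTORC1 signalling, fell. It had 138, 206 and 165 CPM in Etv4_KO against 314, 348 and 404 CPM in control, and 142, 171 and 166 CPM in Etv4_KO_FGF against 256, 328 and 263 CPM in control_FGF. No knockout library reached a control library. Ddit4 fell by 1.07 without FGF (SE 0.15, edgeR adjusted p = 7.81e-05) and by 0.82 with FGF (SE 0.15, edgeR adjusted p = 0.000629). Mxi1, an antagonist of MYC, had 45.7, 44.7 and 47.6 CPM in Etv4_KO against 31.3, 32.7 and 33 CPM in control, and 48.9, 46.4 and 48.6 CPM in Etv4_KO_FGF against 35.6, 35.6 and 35.9 CPM in control_FGF. Its groups were apart in both conditions, and it rose by 0.51 and 0.43 (SE 0.07 each, edgeR adjusted p = 5.43e-05 and 0.000224). Kdm3a, a histone demethylase, had 50.7, 35.9 and 49 CPM in Etv4_KO against 59.6, 62 and 54.2 CPM in control. It fell by 0.37 without FGF (SE 0.13, edgeR adjusted p = 0.0318), or by 0.23 without Etv4_KO replicate 2. The call was lost without control replicate 1 (0.0832) or 2 (0.104), and in the compared libraries alone (0.0929). After the length and GC correction the call was also lost, at log2 -0.15 (edgeR adjusted p = 0.11). With FGF Kdm3a had log2 -0.33 (edgeR adjusted p = 0.0598) and was called without Etv4_KO replicate 2 (0.00107) or control_FGF replicate 2 (-0.42, 0.0395). In that comparison it was also called lower after the length and GC correction (-0.24, edgeR adjusted p = 0.0181). Upper-quartile scaling (-0.38, 0.0302) and the compared libraries alone (-0.33, 0.00308) gave the call as well. Ankrd37, an ankyrin repeat protein, was not called with all libraries and no correction, at log2 0.33 without and 0.37 with FGF (SE 0.18 each). With FGF it was called higher after the length and GC correction (0.51, edgeR adjusted p = 0.0352). Of the 7 intracellular targets outside mitochondria, 4 were higher and 2 lower without FGF, and 4 higher and 1 lower with FGF, against 22.5% and 23.3% of all genes without FGF and 18% and 22.2% with FGF.

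FGF moved few members. In control_FGF against control, 1 of 39 members was higher and 0 were lower, where 0.257% of all genes were higher, 0.232% lower and 0.488% either way. In Etv4_KO_FGF against Etv4_KO, 2 were higher and 0 lower, where 1.47% of genes were higher, 0.944% lower and 2.42% either way. Stc1 was higher with FGF in both genotypes: it rose by 1.28 in the knockout (SE 0.08, edgeR adjusted p = 3.82e-06) and by 0.72 in control (SE 0.08, edgeR adjusted p = 0.000909). No other member was called in control cells by edgeR, and DESeq2 called 2. There 8 members had an unadjusted p under 0.05, a count with no share of all genes beside it. Ndrg1 rose by 0.35 with FGF in the knockout (SE 0.08, edgeR adjusted p = 0.0406). That call was lost without any 1 library of control or Etv4_KO_FGF, Etv4_KO replicate 1 or 3, or control_FGF replicate 1 or 3 (edgeR adjusted p = 0.0636 to 0.145). In control cells Ndrg1 had log2 0.30 (edgeR adjusted p = 0.244).

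The FGF counts were larger without Etv4_KO replicate 2. In control_FGF against control, 2 members were then higher and 3 lower, with 1.59% and 1.22% of genes, 2.8% either way. Ndrg1 joined Stc1 (0.30, edgeR adjusted p = 0.000132), and Vegfa (-0.27, 0.0243), Car9 (-0.64, 0.0466) and Ddit4 (-0.33, 0.0466) were lower. In Etv4_KO_FGF against Etv4_KO, 4 were higher and 2 lower, with 4.78% and 2.98% of genes, 7.76% either way: Slc2a1 (0.29, edgeR adjusted p = 0.00213) and Vegfa (0.30, 0.0135) were added as higher, and Pkm (-0.17, 0.0386) and Egln1 (-0.19, 0.044) as lower. Slc2a1 was also called there without control_FGF replicate 2 (0.29, edgeR adjusted p = 0.0479), and Vegfa without Etv4_KO replicate 3 (0.54, 0.0104). Without Etv4_KO replicate 2, Vegfa was thus higher with FGF in knockout and lower with FGF in control cells.

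Whether the FGF effect differed between genotypes was tested as an interaction, the FGF change in knockout minus that in control. With all libraries 0 of 39 members were called by edgeR, where 0.0166% of genes were. DESeq2 called 2 (Stc1 and Vegfa) and limma-voom 0. By edgeR 10 members had an unadjusted p under 0.05. The share of all genes at that unadjusted threshold is not given here, so this count cannot be set against it. Vegfa had an interaction of 0.67 (SE 0.14, edgeR adjusted p = 0.188) and Stc1 of 0.56 (SE 0.12, edgeR adjusted p = 0.183). Without Etv4_KO replicate 2 both were called, at 0.57 (edgeR adjusted p = 0.00363) and 0.52 (edgeR adjusted p = 0.0116), where 0.719% of genes were higher, 0.262% lower and 0.981% either way, and without Etv4_KO replicate 3 Vegfa was (0.80, edgeR adjusted p = 0.0433). For 5 of the 9 members called without FGF alone, the interaction was -0.46 for Pfkl, -0.42 for Tpi1, -0.32 for Gpi1, -0.30 for Gapdh and -0.33 for Eno1 with all libraries. Leaving out Etv4_KO replicate 2 it was -0.26, -0.13, -0.13, -0.06 and -0.16, and none of these 5 passed edgeR in either set.

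The isoform pairs were compared as ratios of counts within each library, which need no scaling between libraries. The Aldoa to Aldoc ratio was 236, 245 and 227 in Etv4_KO_FGF against 24.7, 26.9 and 26.2 in control_FGF, and 228, 155 and 210 in Etv4_KO against 21.1, 20.4 and 23.1 in control. Knockout and control ratios were far apart in every library, with the lowest knockout ratio in Etv4_KO replicate 2. The knockout difference was 3.18 on the log2 scale, 3.19 with and 3.18 without FGF (exact two-sided permutation within FGF condition, p = 0.005, the smallest possible, adjusted p = 0.0075 over 3 pairs), and 3.13 to 3.27 when any 1 library was left out. Between FGF and no FGF the ratio was higher with FGF by 0.27, by 0.28 within knockout and by 0.27 within control libraries (exact permutation adjusted p = 0.03). That call was lost without Etv4_KO_FGF replicate 1 (adjusted p = 0.075) or 2 (0.09).

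**Figure D4:**
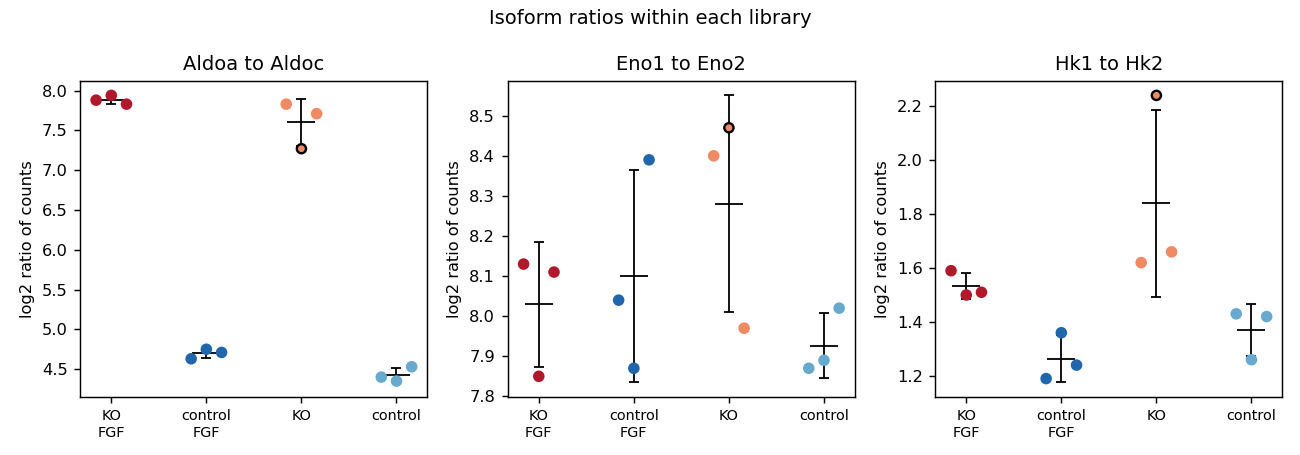
Log2 ratio of counts (y axes) of Aldoa to Aldoc, Eno1 to Eno2 and Hk1 to Hk2 in every library of Etv4_KO_FGF, control_FGF, Etv4_KO and control, with mean and SD of 3 libraries; Etv4_KO replicate 2 is outlined in black. Aldoa to Aldoc averages 7.88 in Etv4_KO_FGF against 4.70 in control_FGF and 7.61 in Etv4_KO against 4.43 in control, while the Eno1 to Eno2 groups overlap.

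The Eno1 to Eno2 ratio was 280, 230 and 277 in Etv4_KO_FGF against 263, 234 and 337 in control_FGF, and 337, 355 and 251 in Etv4_KO against 233, 237 and 259 in control. These groups overlapped, and the knockout difference of 0.14 missed (exact permutation adjusted p = 0.285), as did the FGF difference of -0.04 (exact permutation adjusted p = 0.815). The Hk1 to Hk2 ratio was 3.01, 2.83 and 2.84 in Etv4_KO_FGF against 2.29, 2.57 and 2.37 in control_FGF, and 3.08, 4.73 and 3.16 in Etv4_KO against 2.7, 2.4 and 2.68 in control. Knockout ratios were all above control ratios of their condition, and Etv4_KO replicate 2 was the highest. The knockout difference was 0.37 on the log2 scale (exact permutation adjusted p = 0.0075), 0.27 with and 0.47 without FGF, and 0.27 without Etv4_KO replicate 2. The FGF difference was -0.21 (exact permutation adjusted p = 0.03), -0.31 in knockout and -0.10 in control libraries. It lost its call without any 1 library other than control replicate 2, control_FGF replicate 2 or Etv4_KO replicate 1 or 3 (adjusted p = 0.0675 to 0.18), and was -0.11 without Etv4_KO replicate 2.

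Genes of the same pathways that are not members were counted from lists chosen with earlier results of these data known. Their counts stand against 22.5% of all genes higher and 23.3% lower without FGF (45.8% either way), and 18% and 22.2% with FGF (40.3% either way). Without Etv4_KO replicate 2 the shares with FGF were 28.1% and 30.5% (58.6% either way). Of 11 tested other glycolysis and gluconeogenesis genes, 3 were higher and 2 lower in Etv4_KO than in control (median -0.12), and 2 higher and 1 lower with FGF, or 2 and 3 without Etv4_KO replicate 2. These counts were near the shares of all genes. Ldhb, the lactate dehydrogenase subunit that favours pyruvate, had 1.16, 1.32 and 0.841 CPM in Etv4_KO against 4.33, 4.25 and 4.43 CPM in control, and 0.701, 0.37 and 0.592 CPM in Etv4_KO_FGF against 4.68, 5.05 and 3.81 CPM in control_FGF. It fell by 1.98 and 3.00 without and with FGF (SE 0.22 and 0.24, edgeR adjusted p = 1.22e-05 and 6.91e-07), and its groups did not overlap. Pck2, the mitochondrial PEP carboxykinase, rose by 0.65 and 0.60, and Eno3, the muscle enolase, by 0.78 and 0.41. Of 11 tested genes of pyruvate entry into mitochondria, 6 were higher and 3 lower in both conditions. The pyruvate carrier Mpc1 rose by 0.93 and 0.82, the pyruvate dehydrogenase kinase Pdk3 by 0.67 and 0.59, and the opposing phosphatase Pdp2 fell by 0.68 and 0.45. Of 7 pentose phosphate genes, 4 were higher and 0 lower without FGF, Tkt by 0.58, Taldo1 by 0.40 and G6pdx by 0.31, and 0 were higher and 1 lower with FGF, or 1 and 2 without Etv4_KO replicate 2. The calls of Taldo1 and G6pdx were lost without control replicate 2 (edgeR adjusted p = 0.0656 and 0.0865), that of Taldo1 without control replicate 1 (0.0575) and that of G6pdx without control replicate 3 (0.0616).

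Of 8 tested HIF pathway regulators, 3 were higher and 1 lower without FGF, and 1 higher and 1 lower with FGF, or 4 higher and 1 lower with FGF without Etv4_KO replicate 2. Of all genes, 22.5% were higher and 23.3% lower without FGF, and 18% and 22.2% with FGF, or 28.1% and 30.5% with FGF without Etv4_KO replicate 2. Cited2, which competes with HIF for its coactivators, rose by 0.59 and 0.53, Arnt, the constant HIF partner, fell by 0.36 and 0.29, and Elob, a subunit of the VHL ubiquitin ligase complex, rose by 0.70 without FGF and had log2 0.24 with FGF (edgeR adjusted p = 0.241). Of 23 other tested HIF target genes, 5 were higher and 8 lower without FGF (median -0.04), and 4 higher and 9 lower with FGF (median -0.07). The higher counts were near the shares of all genes, and the lower counts were above their shares of 23.3% without FGF and 22.2% with FGF. Car12, a surface carbonic anhydrase, had 2.27, 3.18 and 3.69 CPM in Etv4_KO against 19.9, 16.7 and 19.1 CPM in control, and 2.76, 2.75 and 3.16 CPM in Etv4_KO_FGF against 15.3, 17 and 17.6 CPM in control_FGF. It fell by 2.60 and 2.52 (SE 0.15 each, edgeR adjusted p = 4.41e-08 and 5.98e-08), with the groups far apart. Bhlhe41, a circadian and hypoxia repressor, fell by 1.34 and 1.38, and Narf by 0.91 and 1.02. Without Etv4_KO replicate 2, 6 of 24 were higher and 11 lower without FGF, and 6 and 12 with FGF. The shares of all genes were then 26.3% and 28.2% without FGF, and 28.1% and 30.5% with FGF. No test was made of these further targets against the members.

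Overlapping gene models limit some values. Exons of Pfkm, Pfkp, Aldoa, Tpi1, Gapdh and Ankrd37 overlap those of a named neighbour on the other strand (Senp1, Pitrm1, Fam57b, Spsb2, Iffo1, and Lrp2bp with Ufsp2). Pfkm, Pkm and Hif1a also overlap a predicted gene on the same strand, further members overlap predicted or antisense genes on the other strand, and the strand setting of the counting is not given in the sources used here. Glycolytic genes with processed pseudogenes, such as Gapdh, Pgk1, Pgam1, Ldha, Pkm and Tpi1, may share reads with these copies, and their counts are uncertain to that extent.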

How the data were processed

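Poly(A) RNA was sequenced from 12 libraries, 3 in each of 4 groups taken from the sample titles. The authors deposited 1 table of raw read counts per gene symbol, 31017 symbols of which 13134 had no count. The submitters' processing notes name STAR 2.7.9a, FastQC 0.11.9, R 4.1.1 and featureCounts, and list the builds mm10 and hg38. Per the labels' protocols the library kit was stranded. How reads with several matches were counted, the strand setting and the annotation release are not given in the sources. Library totals were 18229429 to 23193244 counts, and low genes are limited by counting error.

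Counts were fitted over all 12 libraries with the quasi-likelihood test of edgeR 4.0.16 (R 4.3.3), with TMM scaling, the default low-count filter of edgeR (12079 genes kept), no block and 8 residual degrees of freedom. P-values were adjusted over all genes tested by the Benjamini-Hochberg method, with a threshold of 0.05. CPM values are counts scaled by TMM to a common library total. Isoform ratios are log2 ratios of counts with 0.5 added, and were tested by exact two-sided permutation within condition, adjusted over 3 pairs. Exon length, GC content and coordinates come from GENCODE vM21 (mm10), with 30416 symbols matched directly and 43 by RefSeq overlap. Alternatives used DESeq2 1.42.0, limma-voom (limma 3.58.1), other scalings and filters (among them 50 counts in 3 libraries), a replicate block, a length and GC correction, the compared libraries alone, and each library left out.

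The members and lists were chosen with earlier results of these data known. Values in every library are given for Etv4, the isoform pairs, members called in a knockout comparison with an absolute log2 fold change of 0.5 or more, and members called with FGF at that size. Up to 3 genes of each other list are named, those with the smallest adjusted p in Etv4_KO against control. Values in every library for Slc16a1, Hif1a, Vegfa, Kdm3a, Gapdh, Pkm, Ldhb and Car12, and the 5 interactions named for glycolytic enzymes, were chosen after their values were seen.

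Most same-numbered libraries of different groups did not deviate together: of 18 same-number pairs, 2 had a correlation over 0.1, with a range of -0.09 to 0.34. These were Etv4_KO with control_FGF, replicates 2 (0.34) and 1 (0.21). The numbers were not treated as pairs, and whether they are pairs is not stated in the labels.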

Additional observations from a re-analysis of the deposited data

Results flagged for a closer look

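In Vegfa, Pfkl and Egln3 the libraries with FGF lay on one side of those without FGF in knockout cells and on the opposite side in control cells: Vegfa higher with FGF in knockout and lower in control, Pfkl and Egln3 lower in knockout and higher in control. These are 3 of 39 members (7.69%), against 164 of 12079 tested genes (1.36%), a description with no test. None of the FGF changes of these genes was called by edgeR with all libraries. In knockout they were 0.41 for Vegfa (adjusted p = 0.0562), -0.32 for Pfkl (0.178) and -0.17 for Egln3 (0.22), and in control -0.27 (0.643), 0.14 (adjusted p of 1) and 0.18 (0.716) in that order. The interaction, the FGF change in knockout minus that in control, was 0.67 for Vegfa (edgeR adjusted p = 0.188), -0.46 for Pfkl (edgeR adjusted p = 0.482) and -0.35 for Egln3 (edgeR adjusted p = 0.411), none past the threshold with all libraries. Without Etv4_KO replicate 2 the interaction was called for Vegfa (0.57, edgeR adjusted p = 0.00363) and for Stc1 (0.52, edgeR adjusted p = 0.0116). For Pfkl it was then -0.26 (edgeR adjusted p = 0.145). FGF cannot be told apart from the seeding serum and the medium change, which the labels give for the FGF cultures alone.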

How the results depend on the processing

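The knockout comparisons kept their counts within 1.5 times under the other alternatives, except that 28 members were higher with FGF after the length and GC correction. That count has no share of all genes beside it. No called fold change of a named gene changed sign. Of values not called, Hif1a in Etv4_KO against control ran from -0.14 to 0.30 with 1 library left out, and Eno1 with FGF was -0.04 but 0.12 and called after the length and GC correction (edgeR adjusted p = 0.0494). With 1 library left out, 938 gene results kept direction and call and 58 lost the call, and under the other alternatives 810 kept both and 18 lost the call. In the compared libraries alone, Taldo1 (edgeR adjusted p = 0.0757) and G6pdx (0.0822) lost their calls without FGF, and Ndrg1 (0.219) its FGF call in knockout. Upper-quartile scaling ended the knockout calls with FGF of Pgk1 (0.112), P4ha1 (0.067) and Slc2a1 (0.0501), and the FGF call of Ndrg1 (0.0646). Leaving out 1 library gave 4491 to 6667 genes called in Etv4_KO against control, with 19 to 24 members higher and 5 to 7 lower, and 3963 to 7172 genes with FGF, with 14 to 23 members higher and 4 to 5 lower. The largest shift of the median gene by scaling was -0.051 (log2).

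The FGF counts depended on the processing, and the cause was not tested. In control_FGF against control, 59 genes were called, against 143 by DESeq2, 150 after the length and GC correction, 228 in the compared libraries alone, 356 without both Etv4_KO replicate 2 and control_FGF replicate 2 (an alternative chosen after seeing the data) and 25 to 343 with 1 library left out. Members higher numbered 2 under each of these 4 alternatives and 1 to 2 with 1 library left out. Members lower numbered 3 without both libraries and 0 to 3 with 1 left out. In Etv4_KO_FGF against Etv4_KO, 292 genes were called, against 730 by DESeq2, 958 after the correction, 23 in the compared libraries alone, 1428 without both libraries and 120 to 950 with 1 left out. Members higher there numbered 1 with upper-quartile scaling, 5 by DESeq2, 6 after the correction, 1 in the compared libraries alone, 6 without both and 1 to 4 with 1 left out. Members lower numbered 2 by DESeq2, after the correction and without both, and 0 to 2 with 1 left out. The interaction had 2 genes, against 66 by DESeq2, 4 by limma-voom, 8 with no filter, 33 after the correction, 210 without both and 0 to 120 with 1 left out. Its members higher numbered 2 by DESeq2, 3 without both and 0 to 2 with 1 left out, and its members lower 1 without both. It could not be fitted on the compared libraries alone, since it uses all groups.

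With the replicate block, the FGF difference of the Aldoa to Aldoc ratio (0.27, exact permutation adjusted p = 0.0938) and of the Hk1 to Hk2 ratio (-0.21, exact permutation adjusted p = 0.141) lost their calls, and among members Pkm gained one in Etv4_KO against control. The labels do not state whether the numbers pair the samples, and 7 of 12 libraries correlated best with their own number. With 1 library left out, the knockout differences were 3.13 to 3.27 for Aldoa to Aldoc, 0.09 to 0.22 for Eno1 to Eno2 and 0.27 to 0.42 for Hk1 to Hk2. The FGF differences were 0.19 to 0.33, -0.11 to 0.02 and -0.26 to -0.11 in that order of pairs. For Eno1 to Eno2 the FGF difference was 0.07 without both libraries.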
